A study of Mus musculus with 16 samples.

Results

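Wide H3K27ac domains are long stretches of chromatin in which acetylated regions lie close together. Here they were chosen from the acetylation of both tumour genotypes: H3K27ac regions of SmoM2 and DKO tumours on chromosomes 1 to 19 were pooled, regions at most 10 kb apart were joined, and joined domains at least 15 kb wide were kept. This selected 1060 of 19612 joined domains (5.40%). The data are chromatin immunoprecipitation and sequencing (ChIP-seq) peak lists from medulloblastomas of mice at postnatal day 13. One genotype carried SmoM2 overexpression, SmoM2 being a constitutively active form of Smoothened, and the other was a Sufu;Spop double knockout (DKO), which lacks a restraining partner of Gli proteins and the ubiquitin ligase adaptor that recognises them. The 16 libraries formed 8 groups of 2, with 4 libraries of input DNA, and the 12 ChIP libraries were represented by 6 lists, each standing for 2 libraries of 1 genotype and antibody. The labels do not name the promoter or Cre line behind either genotype, and they do not say whether the 2 libraries of a group came from separate animals.

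H3K27ac, acetylation of lysine 27 of histone H3, marks active promoters and enhancers, and clusters of strongly acetylated elements, often called super-enhancers, are typical of genes that define a cell's identity. H3K36me3, trimethylation of lysine 36 of the same histone, is laid down behind elongating RNA polymerase II and marks the bodies of transcribed genes. Gli2 is the main transcriptional activator at the end of the Hedgehog pathway, which drives proliferation of cerebellar granule neuron progenitors and of the medulloblastomas that arise from them. The deposited lists show where each was called, not which gene a domain serves. Genes at these positions are not analysed here, and neither is the tissue label against marker genes, because positions are in mouse build mm9 and no annotation of that build was used.

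No value below has a replicate error, since each list merges its libraries. The lists give no read numbers, so depth is unknown. No difference between genotypes was therefore tested, and a base outside a list may still carry the mark below the caller's threshold. Fewer cells with a mark and a weaker mark per cell cannot be told apart in these bulk tumours. On the autosomes the DKO lists held more regions of H3K27ac (28987 against 21211), fewer but wider ones of H3K36me3 (65150 against 87539) and more Gli2 peaks (1397 against 136). Intervals are Wilson 95% intervals for shares and exact Poisson 95% intervals for densities, and both cover counting error only. Domains that lie near each other share their surroundings, so the intervals, which treat them as separate, are somewhat too narrow.

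The wide domains were few but held much of the acetylated sequence. They spanned 29.4 Mb, of which 9.72 Mb (33.1%) was acetylated in at least 1 genotype. They carried 35.1% of all acetylated bases of SmoM2 tumours and 34.6% of those of DKO tumours. Widths ran from 15.01 to 245.8 kb with a median of 21.9 kb and quartiles of 17.98 and 30.0 kb. A typical domain was a string of islands, with a median of 4 SmoM2 regions (0 to 55) and 5 DKO regions (1 to 67). By width, 412 measured 15 to 20 kb, 382 measured 20 to 30 kb, 199 measured 30 to 50 kb and 67 were at least 50 kb wide. The narrowest members were 15.010, 15.020 and 15.054 kb wide, and the widest joined domains left out measured 14.971, 14.950 and 14.950 kb.

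Wide domains lay on every autosome and often near one another. Chromosome 11 held the most, 117 (8.25% of its joined domains, 6.92–9.79%), and chromosome 16 the fewest, 23 (3.25%, 2.17–4.83%). Among 1041 pairs of neighbours on the same chromosome the median gap was 494 kb, 261 pairs (25.1%) lay under 100 kb apart and 74 under 20 kb. The domain with the most DKO Gli2 peaks (10) and one of the 2 that follow it (8) were such neighbours, on chromosome 8 at 122788298–122864205 and 122877564–123123350, separated by 13.4 kb. A second pair on that chromosome, at 125135059–125204594 and 125214937–125354981, lay 10.3 kb apart, just past the distance at which regions were joined.

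Acetylated length was a description of the members, since it chose them. Summed over the wide domains it was 6.56 Mb in SmoM2 and 8.61 Mb in DKO tumours, a ratio of 1.31, beside 1.33 over all joined domains and 1.34 over the narrower ones. The median domain had 3.97 kb acetylated in SmoM2 and 5.27 kb in DKO tumours. Of the acetylated sequence in wide domains, 56.1% was called in both genotypes, compared with 44.2% in narrower domains and 47.2% in domains of 5 to 15 kb. In log2 kb, the lengths in the 2 genotypes correlated across the 1043 domains that had both (Pearson r = 0.80, Spearman rho = 0.83), where every point draws on the same pair of lists and longer domains have more room in both.

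**Figure D1:**
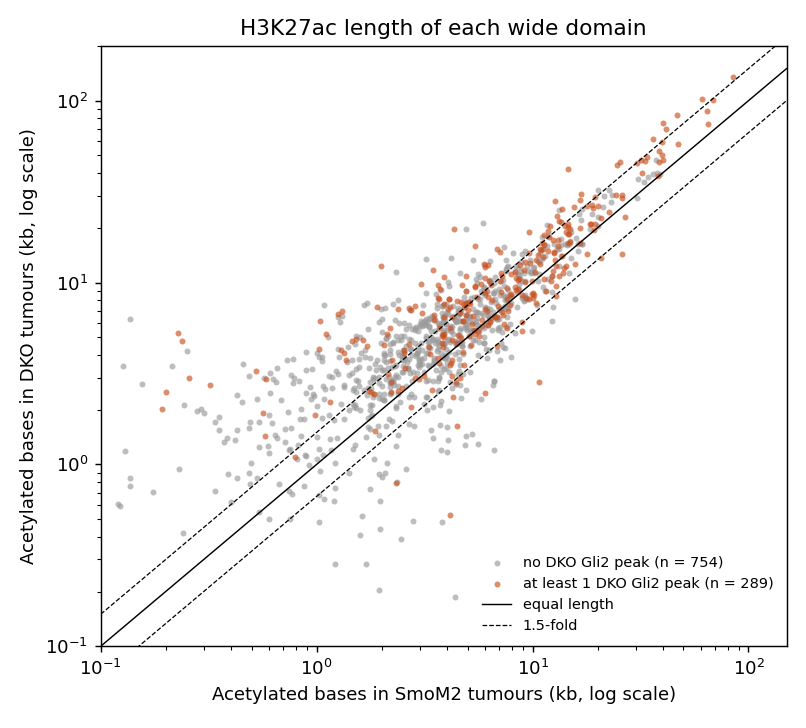
Acetylated kilobases of each wide domain in SmoM2 (x axis) and DKO tumours (y axis), both on log scales. Points are the 1043 domains acetylated in both genotypes (17 with no SmoM2 acetylation cannot be drawn), coloured by whether they hold a DKO Gli2 peak (289 and 754 domains). The solid line marks equal length and the dashed lines a 1.5-fold difference. Most points lie above the solid line.

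A domain was counted as longer in 1 genotype when its acetylated bases there were at least 1.5 times those in the other. In DKO tumours 415 wide domains were longer by this measure (39.2%, 36.3–42.1%), beside 51% of all joined domains. In SmoM2 tumours 84 were longer (7.92%, 6.45–9.71%), beside 19.4%. The remaining wide domains, the largest class, lay within 1.5-fold. Narrower domains, with a median of 1 region in each list, make up most of that background, and in domains of 5 to 15 kb the shares were 46.1% and 13.3%. When each length was first divided by the total of its list, 218 wide domains were longer in DKO and 179 in SmoM2 tumours (20.6% and 16.9%), beside 42.8% and 26% of all joined domains. The split among wide domains thus depends on whether the length of the lists is taken into account. Both shares lay below the background with and without this step, but a domain acetylated in 1 genotype only counts as longer there. Of all joined domains 30.0% had no SmoM2 and 11.6% no DKO acetylation, beside 1.60% and 0% of wide ones. Among domains acetylated in both genotypes the median ratio was 1.32 in wide and 1.23 in all joined domains. The ratio of summed lengths was 1.26 in domains of 15 to 20 kb, 1.27 at 20 to 30 kb, 1.28 at 30 to 50 kb and 1.43 in the 67 domains of at least 50 kb.

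Acetylation called in 1 genotype lay mostly in regions that touched a region of the other. Within wide domains 3.16 Mb was acetylated in DKO tumours only and 1.11 Mb in SmoM2 tumours only. Of the DKO-only bases, 63.6% belonged to DKO regions that touched a SmoM2 region, compared with 50.7% in narrower domains. Of the SmoM2-only bases, 67.7% belonged to SmoM2 regions that touched a DKO region, compared with 58.3%. Regions that touched no region of the other genotype were short, with a median of 275 bp among DKO and 248 bp among SmoM2 regions of wide domains, beside 1320 and 931 bp for those that touched one.

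Many domains reached the width in only 1 genotype. Taking the regions of each genotype alone, 403 of the 1060 domains (38.0%) contained a joined stretch of at least 15 kb in both, 436 (41.1%) in DKO tumours alone, 120 (11.3%) in SmoM2 tumours alone, and 101 (9.53%) reached 15 kb only when both lists were pooled. The DKO list holds more H3K27ac regions (28987 against 21211), and this split was not adjusted for the length of the lists. The 403 domains wide in both genotypes had a median width of 29.3 kb and an acetylated ratio of 1.26. The 436 wide in DKO tumours alone had a median width of 20.0 kb and a ratio of 1.69, and the 120 wide in SmoM2 tumours alone had 19.1 kb and 0.783, which follows from how these classes are drawn. H3K36me3, which played no part in drawing them, had ratios of DKO to SmoM2 bases of 1.246, 1.29 and 1.20 in the same 3 classes. The order of the classes was thus the same for both marks, over a much smaller range for H3K36me3.

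All 1060 domains had acetylation in DKO tumours and 17 had none in SmoM2 tumours. These 17 were 15.1 to 26.5 kb wide with 0.656 to 4.60 kb acetylated in DKO tumours (median 1.98 kb), 13 of them touched H3K36me3, 1 held a DKO Gli2 peak and none a SmoM2 Gli2 peak. Among the 582 domains with at least 5 kb acetylated in either genotype, the highest ratio was on chromosome 10 at 59232734–59255778, where 8 DKO regions covered 6.34 kb and 1 SmoM2 region covered 0.136 kb. H3K36me3 covered 6.33 kb of that domain in DKO and 3.24 kb in SmoM2 tumours. It held no Gli2 peak. On chromosome 3 at 100881903–100914441, acetylation covered 5.27 kb in DKO tumours and 0.228 kb in SmoM2 tumours, and 1 Gli2 peak of DKO tumours was called. The domain on chromosome 3 at 8717637–8743782, had 12.3 kb in DKO tumours and 1.98 kb in SmoM2 tumours, 1 DKO Gli2 peak and no H3K36me3. Each of these 3 domains had at least 1 acetylated region in SmoM2 tumours.

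At the other end, the domain on chromosome 6 at 51540994–51563076 had 6.60 kb acetylated in SmoM2 and 1.21 kb in DKO tumours. It held a SmoM2 Gli2 peak at 51542366–51542505, the fifth of the SmoM2 list by −log10 q, and no DKO Gli2 peak, although the site was acetylated in both genotypes. The domain on chromosome 2 at 33934714–33964233 had 10.7 kb acetylated in SmoM2 and 2.85 kb in DKO tumours and no H3K36me3. There the Gli2 peak was of DKO tumours, at 33960699–33960908, with rank 18 in its list and the authors' fold enrichment of 36.1, and it lay in acetylation of SmoM2 tumours only. In these 2 domains the genotype with the Gli2 peak was thus once the one with longer acetylation and once the other.

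Gli2 was called in wide domains far more often than in joined domains at large. A DKO Gli2 peak lay in 290 wide domains (27.4%, 24.8–30.1%), beside 4.03% of all joined domains and 8.34% (7.37–9.42%) of domains of 5 to 15 kb. With the DKO list shortened by −log10 q to the length of the SmoM2 list, 5.85% of wide domains held one. The share of all joined domains was not computed for this shortened list. A SmoM2 Gli2 peak lay in 42 (3.96%, 2.94–5.31%), beside 0.484% of all joined domains. At least 2 DKO peaks lay in 92 wide domains (8.68%, 7.13–10.5%), beside 0.617%. Together the wide domains held 463 of the 1397 DKO Gli2 peaks (33.1%) and 43 of the 136 SmoM2 peaks (31.6%), close shares of lists of very different length. The share with a DKO peak was 16.0% at 15 to 20 kb, 25.9% at 20 to 30 kb, 38.2% at 30 to 50 kb and 73.1% (49 of 67) from 50 kb. For SmoM2 peaks it was 1.46%, 2.36%, 6.53% and 20.9% in the same order.

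**Figure D2:**
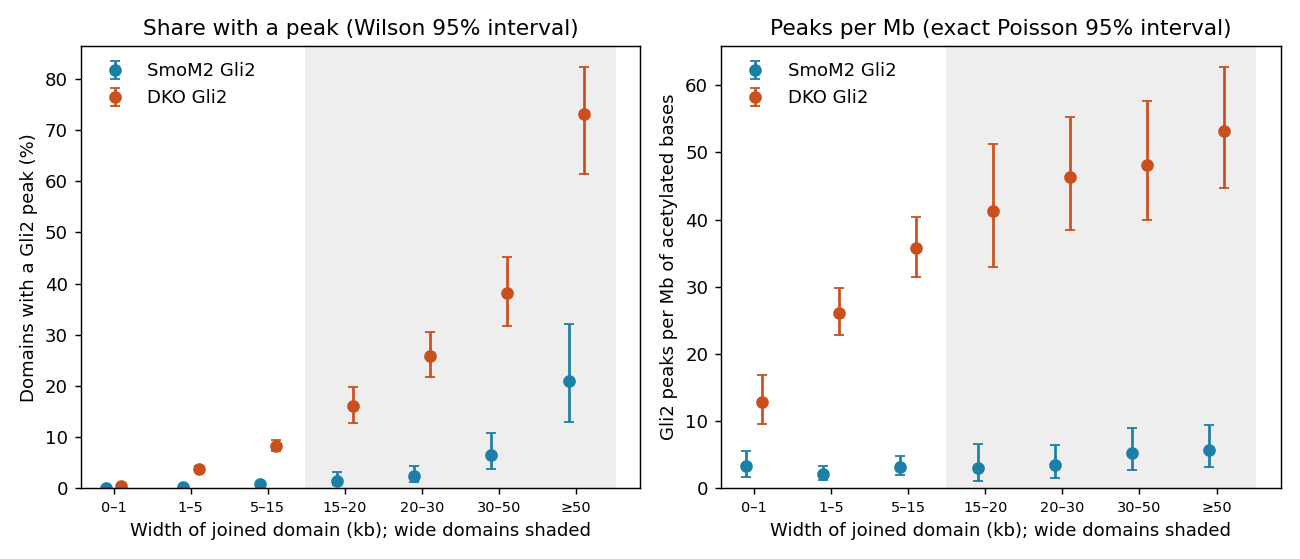
Joined domains by width class (x axis, kb; wide domains shaded). The left panel gives the percentage holding at least 1 Gli2 peak, with Wilson 95% intervals, and the right panel Gli2 peaks per Mb of sequence acetylated in either genotype, with exact Poisson 95% intervals, for SmoM2 (blue) and DKO (orange) lists. The DKO share climbs from 16.0% to 73.1% within the wide domains, while DKO density goes from 41.3 to 53.2 per Mb.

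A longer domain has more room for a peak, so peaks were also counted per Mb of acetylated sequence. Wide domains held 47.6 DKO Gli2 peaks per Mb (43.4–52.2), compared with 26.9 (24.7–29.3) in narrower domains, 1.77 times as many, and 2.81 times as many with the DKO list shortened to the length of the SmoM2 list. The density was 35.7 (31.5–40.4) in domains of 5 to 15 kb, and within the wide domains it was 41.3 (32.9–51.3) at 15 to 20 kb and 53.2 (44.7–62.8) from 50 kb, where the intervals overlap. SmoM2 density was 4.42 (3.20–5.96) in wide and 2.74 (2.06–3.57) in narrower domains. Between domains with the same acetylated length, wide ones did not stand far apart. With 4 to 6 kb acetylated, 19.3% of wide and 18.9% of narrower domains held a DKO peak, with 6 to 10 kb 26.9% and 23.1%, and with 2 to 4 kb 11.4% (7.75–16.6%) and 7.66% (6.58–8.90%). From 10 kb the values lay farther apart, 53.3% (147 of 276, 47.4–59.1%) and 28.6%, with intervals that overlap, the latter resting on 14 narrower domains (4 with a peak, 11.7–54.6%) and the wide ones reaching much greater lengths.

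Inside wide domains, DKO Gli2 summits were densest in sequence acetylated in both genotypes. Of 462 DKO summits, 67.3% lay in sequence acetylated in both genotypes, which is 18.5% of the domains' width. The density there was 57.1 per Mb (50.9–63.8), compared with 19.9 (15.3–25.5) in sequence acetylated in DKO tumours only and 33.4 (23.5–46.1) in sequence acetylated in SmoM2 tumours only. In the gaps between islands it was 2.59 (1.93–3.41). Sequence acetylated in DKO tumours only, the genotype of the Gli2 list, thus held fewer DKO summits per Mb than shared sequence. In narrower domains the shared sequence held 24.7 DKO summits per Mb (21.5–28.2), less than in wide domains, and the gaps held 6.02 (5.02–7.16), more than in wide domains. The SmoM2 list did not show this order. Of its 43 summits in wide domains, 28 lay in shared sequence (5.14 per Mb, 3.41–7.43), 6 in SmoM2-only (5.42, 1.99–11.8), 4 in DKO-only (1.26, 0.344–3.24) and 5 in gaps (0.254, 0.0825–0.593). In narrower domains SmoM2 density was 2.75 (1.76–4.10) in shared and 4.11 (2.25–6.89) in SmoM2-only sequence, and these intervals overlap, as they do in wide domains.

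**Figure D3:**
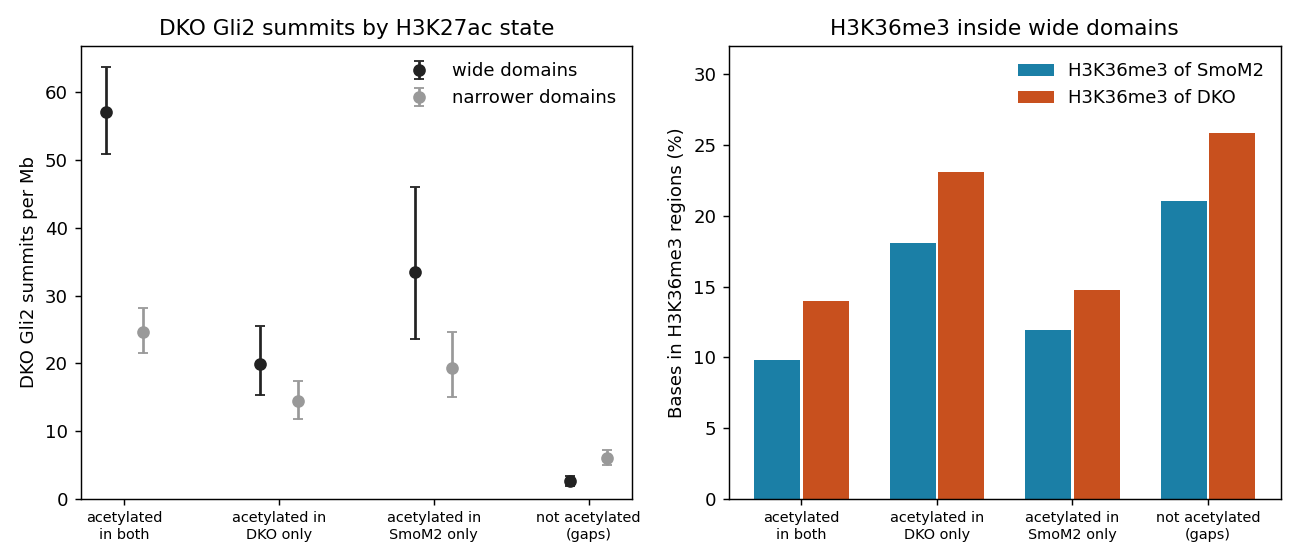
The left panel gives DKO Gli2 summits per Mb (exact Poisson 95% intervals) in sequence acetylated in both genotypes, in 1 or in neither, for wide (black) and narrower (grey) domains. The right panel gives, for wide domains, the percentage of bases of each state inside H3K36me3 regions of SmoM2 (blue) and DKO (orange) tumours. Summits are densest in shared acetylated sequence (57.1 per Mb), whereas H3K36me3 covers the gaps most (21.0% and 25.9%).

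Highly ranked DKO Gli2 peaks were common in wide domains. When DKO peaks were ranked by −log10 q, 55 of the highest 100 lay in a wide domain and 20 of the lowest 100. The authors' fold enrichment, a value of each peak that ranks it only within its list, had a median of 10.6 in wide domains, 10.0 in narrower ones and 8.49 outside joined domains. Ranks within the SmoM2 list did not separate in this way (35 of the highest and 33 of the lowest 100, sets that overlap in a list of 136). Of the 43 SmoM2 peaks in wide domains, 38 coincided with a DKO peak, compared with 36 of 54 in narrower domains and 8 of 39 elsewhere. The 4 wide domains with a SmoM2 but no DKO Gli2 peak, picked out after their values were seen, lay on chromosome 6 at 51540994–51563076 (described above), chromosome 7 at 133935342–133977893, chromosome 15 at 103115952–103136357 and chromosome 5 at 143652019–143671452.

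Clusters of Gli2 peaks lay mostly in wide domains, which have more room for them. At least 3 DKO peaks lay in 40 of them and in 2 narrower domains, at least 4 in 16 and in none of the narrower ones, and at least 5 in 9. Neighbouring DKO peaks in 1 domain lay a median of 5.79 kb apart (173 gaps, quartiles 1.34 and 14.8 kb), and 48.0% of gaps were under 5 kb. Of 463 peaks, 53.1% lay in the outer part of the width, nearer to an edge than to the centre. This single split cannot show whether peaks gather within either part. Domains with and without DKO Gli2 had close acetylated ratios. Of the 290 with a DKO peak 35.9% (30.6–41.5%) were longer in DKO tumours by at least 1.5-fold, compared with 40.4% (37.0–43.9%) of the 770 without, with overlapping intervals. The median ratios were 1.33 and 1.31 and the ratios of summed length 1.36 and 1.28. From 30 kb the order of the shares was the other way, 36.8% (28.9–45.5%) with and 33.3% (26.1–41.5%) without a peak, with median ratios of 1.40 and 1.30. The share longer in SmoM2 tumours was 4.48% (2.64–7.52%) with a DKO peak and 9.22% (7.37–11.5%) without, with intervals that just overlap. By width it was 7.58% and 13.01% at 15 to 20 kb, 6.06% and 6.71% at 20 to 30 kb, and 1.60% and 4.96% from 30 kb. The intervals overlap within each class, where the shares with a peak rest on 5, 6 and 2 domains. Domains with a peak were also wider (median 27.4 against 20.7 kb), and the part of width in the difference was not tested.

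The widest domain, on chromosome 8 at 122877564–123123350, held 10 DKO Gli2 peaks, the most of any. Acetylation covered 84.5 kb of it in SmoM2 and 135 kb in DKO tumours, and H3K36me3 32.8 and 53.2 kb. Its Gli2 peaks ranked from 114 to 1322 in the DKO list of 1397, and spread from 0.452 to 168 kb from the start of the domain. The peak ranked 114, at 122949125–122949428 with a fold enrichment of 20.0, coincided with the domain's only SmoM2 peak. Of the 10 DKO peaks, 8 lay in acetylation of both genotypes, 1 in that of DKO tumours only and 1 in that of SmoM2 tumours only.

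Its neighbour at 122788298–122864205 held 8 DKO peaks, all between 36.3 and 61.1 kb from its start. Acetylation covered 38.7 kb in SmoM2 tumours and 52.7 kb in DKO tumours, where 1 DKO region ran unbroken through most of the cluster while SmoM2 regions left short gaps. Every one of these peaks lay in acetylation of both genotypes. The highest had ranks 21 and 26, at 122841043–122841541 (fold enrichment 32.5) and 122828142–122828801 (32.3), and the second of these coincided with the SmoM2 peak. Little H3K36me3 was called, 0.115 kb in SmoM2 tumours and 1.26 kb in DKO tumours, unlike in the widest domain next to it.

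The domain on chromosome 13 at 63626104–63675884 held as many DKO peaks, 8, in 49.8 kb. Acetylation covered 25.8 and 29.3 kb and H3K36me3 31.5 and 32.3 kb in SmoM2 and DKO tumours, so both marks were nearly equal. All 8 peaks lay in shared acetylation, 28.0 to 48.7 kb from the domain's start. The 4 highest had ranks 68 to 83 and folds of 22.5 to 24.4, at 63654029–63654236, 63657764–63657987, 63664326–63664676 and 63667648–63667851. The last of these coincided with the only SmoM2 peak, which ranked 23 in its own list of 136. The domain on chromosome 7 at 152345191–152406058 held 6 DKO Gli2 peaks with no H3K36me3 in either genotype and 18.5 and 21.1 kb of acetylation. Dense Gli2 thus occurred in domains with much, little and no H3K36me3.

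The domain on chromosome 9 at 57838852–57896421 was the only one with 2 SmoM2 Gli2 peaks, each at a DKO peak. The first site, at 57840886–57841138 in DKO tumours, ranked 16 in the DKO list and lay in acetylation of both genotypes. The second, at 57883282–57883704, ranked 380 and lay in a short gap between islands. Acetylation covered 13.7 kb in SmoM2 tumours and 25.5 kb in DKO tumours. H3K36me3 covered 0.132 kb in SmoM2 tumours and 17.3 kb in DKO tumours, all of it in the first 38.4 kb of the domain. No other wide domain with at least 1 base of H3K36me3 in both genotypes had so high a ratio, which rests on the 0.132 kb of SmoM2 tumours.

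**Figure D4:**
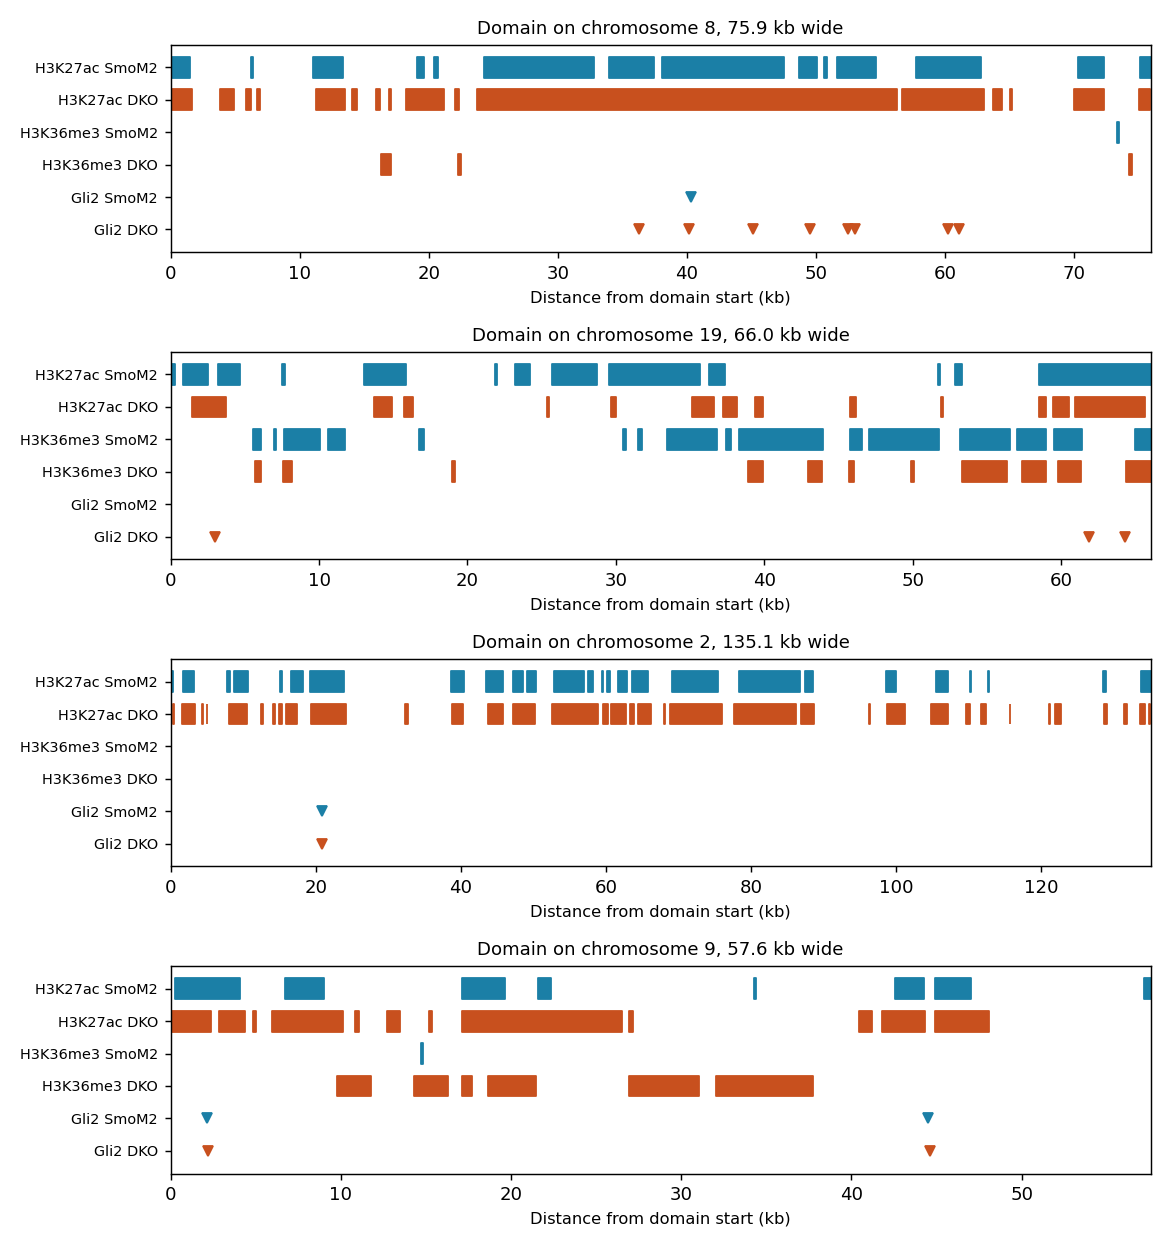
Regions of 4 wide domains by distance from the domain's start (x axis, kb): bars are called H3K27ac and H3K36me3 regions and triangles Gli2 peaks, in SmoM2 (blue) and DKO (orange) tumours. From the top are the chromosome 8 domain with 8 DKO Gli2 peaks, the chromosome 19 domain with shorter DKO acetylation and H3K36me3, a chromosome 2 domain with no H3K36me3 over 135 kb, and the chromosome 9 domain with 2 SmoM2 Gli2 peaks.

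H3K36me3 was called in most wide domains. It covered a larger share of the gaps, which make up 66.9% of their width, than of sequence acetylated in both genotypes. It touched 806 of 1060 (76.0%, 73.4–78.5%), beside 16.8% of all joined domains and 44.1% (42.3–45.9%) of those of 5 to 15 kb, with touching meaning at least 1 shared base. A wider domain has more room for such a base. The share rose from 7.36% under 1 kb to 66.7% at 15 to 20 kb and 92.5% from 50 kb. Both genotypes had H3K36me3 in 704 (66.4%), DKO tumours alone in 57 (5.38%), SmoM2 tumours alone in 45 (4.25%) and neither in 254 (24.0%). Over all joined domains these shares were 12.4%, 2.66%, 1.73% and 83.2%. H3K36me3 covered 25.5% of the width of wide and 10.4% of that of narrower domains. Within wide domains it covered 25.9% of the gaps in DKO tumours and 14.0% of the sequence acetylated in both genotypes. In SmoM2 tumours the same shares were 21.0% and 9.79%. Sequence acetylated in DKO tumours only lay nearer to the gaps in H3K36me3 than the shared islands did, at 23.1% in DKO and 18.04% in SmoM2 tumours.

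Around the edges the same pattern appeared. In the 10 kb outside the edges, which hold no acetylation because of how domains were joined, H3K36me3 covered 20.1% of bases in SmoM2 and 23.7% in DKO tumours. In the first 3 kb inside, where acetylation is frequent because a region forms the edge, it covered 11.6% and 14.5%, and from 10 to 15 kb inside 17.9% and 22.2%. The 412 domains of 15 to 20 kb have no base 10 kb or more from both edges. The zone from 10 to 15 kb therefore does not show their interior. At 40 to 50 kb outside, H3K36me3 covered 15.6% and 18.5%. H3K36me3 was thus somewhat more frequent beside the domains than farther away, with a dip at the edge islands.

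**Figure D5:**
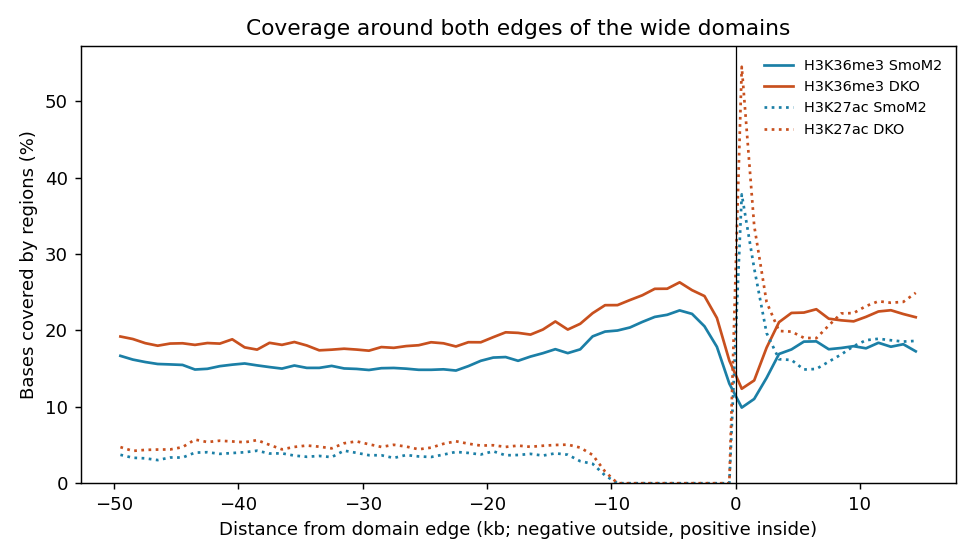
Percentage of bases in called regions (y axis) by distance from the nearer domain edge (x axis, kb; negative outside, positive inside), over both edges of the wide domains, for H3K36me3 (solid) and H3K27ac (dotted) in SmoM2 (blue) and DKO (orange) tumours. H3K36me3 dips just inside the edge, where H3K27ac is highest. The lack of H3K27ac from −10 to 0 kb comes from how domains were joined.

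H3K36me3 covered 5.38 Mb of the wide domains in SmoM2 and 6.74 Mb in DKO tumours, a ratio of 1.254 beside 1.24 over all joined domains. Of the 806 domains with the mark, 267 (33.1%, 30.0–36.4%) had at least 1.5 times as much in DKO tumours, beside 35.3% of all joined domains with the mark. In SmoM2 tumours 81 (10.0%, 8.16–12.3%) had at least 1.5 times as much, beside 15.8%. The members' shares were thus near the background for DKO and somewhat below it for SmoM2 tumours, where domains with the mark in 1 genotype only also count. By chromosome the ratio was above 1 on every autosome but chromosome 19. There it was 0.931, and 1.04 over the other 24 domains once the domain with its largest difference was left out.

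That domain, on chromosome 19 at 46494249–46560284, had the largest excess of H3K36me3 in SmoM2 tumours of all wide domains. Without an mm9 annotation it was not tested whether it lies at a gene knocked out in DKO tumours. This limits what its values, and the ratio of chromosome 19, say about the genotypes. H3K36me3 covered 28.2 kb in SmoM2 tumours and 11.6 kb in DKO tumours, and acetylation 26.0 and 14.3 kb. The differences were uneven along it. In the middle 22.0 kb, H3K36me3 covered 9.84 kb in SmoM2 tumours and 1.98 kb in DKO tumours and acetylation 11.3 and 3.38 kb. In the last 22.0 kb the values were closer, with 13.8 and 8.47 kb of H3K36me3 and 8.17 and 6.79 kb of acetylation. It held 3 DKO Gli2 peaks, 1 near its start and 2 in the last 22.0 kb, the highest at 46558465–46558700 with rank 93. The next largest differences of this direction were much smaller. On chromosome 2 at 179932532–179966192, H3K36me3 covered 5.88 kb in SmoM2 tumours and 1.89 kb in DKO tumours while acetylation was nearly equal (6.67 and 6.49 kb). On chromosome 10 at 60673701–60696343 the lengths were 8.37 and 4.52 kb of H3K36me3 and 5.99 and 2.48 kb of acetylation, and the SmoM2 Gli2 peak and both DKO Gli2 peaks lay in acetylation of SmoM2 tumours only.

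The largest H3K36me3 differences towards DKO tumours, counted in bases, lay in very wide domains, which have more room for such a difference. On chromosome 7 at 133085648–133238781, H3K36me3 covered 36.3 kb in SmoM2 tumours and 66.5 kb in DKO tumours, and acetylation 61.2 and 102.8 kb. This domain held 4 DKO Gli2 peaks, one of them second in the DKO list. On chromosome 11 at 67999931–68088717 the lengths were 21.9 and 42.1 kb of H3K36me3 and 9.59 and 18.9 kb of acetylation, with 3 DKO Gli2 peaks. On chromosome 5 at 125486882–125707401, the second widest domain, H3K36me3 covered 109.0 and 131.7 kb, more than acetylation did (68.4 and 100.4 kb), and 7 DKO Gli2 peaks were called.

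Differences of both marks went loosely together. Among the 309 domains with H3K36me3 that were at least 1.5-fold longer in DKO acetylation, 128 (41.4%) also had at least 1.5 times as much H3K36me3 in DKO tumours and 21 (6.80%) in SmoM2 tumours. Among the 51 longer in SmoM2 acetylation, 13 (25.5%) and 15 (29.4%) did. In the 446 between, 126 (28.3%) and 45 (10.1%) did. Summed H3K36me3 had ratios of DKO to SmoM2 of 1.33, 1.01 and 1.22 in these 3 classes. Across the 695 domains with both marks in both genotypes, the log2 ratios of the marks had a Pearson r of 0.19 and a Spearman rho of 0.19, a weak relation between values drawn from 4 lists that all points share. The 15 domains lower in DKO tumours for both marks had widths of 15.5 to 66.0 kb, and most had little H3K36me3: in 8 of them none was called in DKO tumours.

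Extreme H3K36me3 coverage picked out different kinds of domain. On chromosome 2 at 32055307–32075526, 98.0% of 20.2 kb lay in H3K36me3 of at least 1 genotype (19.1 kb in SmoM2 tumours and 19.5 kb in DKO tumours), while acetylation covered 2.01 and 6.29 kb. On chromosome 7 at 149165355–149188710 it was 97.9%, with only 0.643 and 1.44 kb acetylated. Of the 5 domains with the largest share, 1 held a Gli2 peak. The widest domain without the mark, on chromosome 2 at 30493237–30628354, had 47.4 kb acetylated in SmoM2 and 57.5 kb in DKO tumours over 135 kb. A single Gli2 site there was called in both genotypes, at 30514048–30514267 in DKO tumours. On chromosome 13 at 23618472–23678916, 23.3 kb in SmoM2 tumours and 30.2 kb in DKO tumours were acetylated with neither H3K36me3 nor Gli2, and on chromosome 6 at 54667260–54721544 there were 3.05 and 9.78 kb with 3 DKO Gli2 peaks.

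Gli2 was called at close shares in domains with and without H3K36me3. A DKO peak lay in 27.6% (22.4–33.4%) of the 254 domains without and in 27.3% (24.3–30.5%) of the 806 with the mark, although those without were narrower (median 19.3 against 23.0 kb). Per Mb acetylated, the values were 56.7 (46.0–69.2) without and 45.7 (41.1–50.6) with the mark, and these intervals overlap. At 15 to 20 kb the shares were 21.2% (15.2–28.7%) without and 13.5% (9.92–17.99%) with, at 20 to 30 kb 31.0% (22.3–41.4%) and 24.4% (19.9–29.6%), and from 30 kb 46.7% and 47.0%. Domains without H3K36me3 were more often longer in SmoM2 acetylation (12.99%, 9.40–17.7%, against 6.33%, 4.85–8.22%). By width the shares without and with the mark were 16.1% (10.9–23.1%) and 10.2% (7.14–14.3%) at 15 to 20 kb, 11.5% (6.36–19.9%) and 5.08% (3.11–8.22%) at 20 to 30 kb, and 3.33% (1 of 30) and 3.39% (8 of 236) from 30 kb. The intervals overlap within each class. The shares longer in DKO acetylation were 41.7% without and 38.3% with the mark.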

How the data were processed

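Per the labels' protocols, tumours were crosslinked and sonicated, chromatin was precipitated with antibodies to H3K27ac, H3K36me3 or Gli2, and some lysate served as input. The text also names an Olig2 antibody on the beads, which no sample lists, so lists are named by the antibody given for each sample. The tools named are MACS2, bedtools, BWA and Trimmomatic 0.36, with build mm9, per the submitters' processing notes. Not given in the sources used here are their roles, how libraries were merged, whether input was the control, and the settings. The authors deposited, for each peak, a fold enrichment (ratio over background), p and q as −log10, and a score that is 10 times −log10 q. These were used only to rank or filter peaks within a list. Depth is unknown.

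Starts were converted to 1-based positions. Joining, covered bases and overlaps of at least 1 base were computed in Python 3.11.15 with numpy 2.4.6, pandas 2.3.3 and scipy 1.17.1, and drawn with matplotlib 3.10.9. On simulated regions, 400 of 400 covered lengths, 400 of 400 overlap counts and 200 of 200 planted domains were recovered. Acetylated sequence without a genotype means the union of both. Gli2 was counted by peak per domain and by summit per acetylation state.

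Members, rules and classes were chosen with earlier results of these data known. Domains are named by rule: the 10 widest, the 5 with most Gli2 peaks of each genotype (ties by width), the 5 highest and lowest acetylated ratios among domains with at least 5 kb acetylated in either genotype, the 5 largest and smallest H3K36me3 shares, the 5 largest H3K36me3 differences each way, and 3 on each side of the width threshold. The text gives some of these. Chromosomes X and Y were left out by the rule. Gene and marker lists could not be used without an mm9 annotation. Alternatives changed the joining distance, the width, the region and peak thresholds and the definition of overlap.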

Additional observations from a re-analysis of the deposited data

Results flagged for a closer look

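The rule for wide domains left out the sex chromosomes, yet acetylation of the same kind was called there. Chromosome X held 6 wide domains, with 13.8 kb acetylated in SmoM2 and 12.7 kb in DKO tumours, a ratio of 0.918 beside 1.31 on the autosomes, and 1 SmoM2 and no DKO Gli2 peak. Chromosome Y held 1, with 7.90 kb acetylated in SmoM2 and none in DKO tumours, and 5 SmoM2 and 10 DKO Gli2 peaks. The sex of the animals is not in the labels, and with so few domains these are values only.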

How the results depend on the processing

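Each alternative changed 1 choice, and 93 planned values and 2 added after seeing the data were computed. Of the planned ones 50 stayed inside the Wilson interval of a share or, for counts and ratios, within 1.5-fold of the main value, and 43 moved further. Most moved because the set of domains changed. Joining at 5, 15 or 20 kb gave 312, 1993 or 2881 domains, with a DKO Gli2 peak in 42.9%, 21.2% or 17.6%, a SmoM2 peak in 7.69%, 2.71% or 2.15%, and H3K36me3 in 80.1%, 71.9% or 68.4%. Smallest widths of 10, 20 or 30 kb gave 2044, 648 or 266 domains, DKO Gli2 in 19.5%, 34.6% or 47.0%, SmoM2 Gli2 in 2.64%, 5.56% or 10.2%, and H3K36me3 in 63.99%, 81.9% or 88.7%. H3K27ac regions with −log10 q of at least 3 gave 341 domains (39.3% and 8.80% with DKO and SmoM2 Gli2), SmoM2 regions alone 537 (32.6% and 6.15%), and DKO regions alone 30.7% with DKO Gli2. With Gli2 peaks of −log10 q of at least 10 the shares were 22.5% and 1.79%, and 24.2% of domains held a DKO summit inside an H3K27ac region. With the DKO Gli2 list shortened to the SmoM2 length, 5.85% held a DKO peak and the density ratio to narrower domains was 2.81. H3K36me3 touched 67.0% or 47.3% at −log10 q of at least 2 or 3, 69.5% at a fold of at least 3, 70.3% when 500 bases were required and 56.9% when 10% of the width was. At 2-fold, 218 domains were longer in DKO and 44 in SmoM2 acetylation, and after division by list totals (added) 218 and 179. Shares of all joined domains were not computed at 2-fold or for the shortened Gli2 list. The ratios of summed acetylated and summed H3K36me3 length stayed within 1.5 times under each alternative run, a wide range for ratios so near 1. The acetylated ratio, 1.31 in the main set, was 1.11 in domains joined from SmoM2 regions alone and 1.40 from DKO regions alone. With the DKO H3K27ac list shortened to the SmoM2 length it was 1.21. The H3K36me3 ratio ran from 1.17 to 1.43. Of 42 named acetylated ratios, 41 kept their value within 1.5 times with the DKO list shortened and 1 reversed, chromosome 7 at 149165355, from 2.24 to 0.218. At −log10 q of at least 3, 26 kept it, 6 moved and 10 had no value. Of the named H3K36me3 ratios, 18 kept it at −log10 q of at least 2, 3 moved and 7 had no value. At a fold of at least 3, 22 kept it, 3 moved and 3 had no value. The ratio on chromosome 10 at 59232734 went from 1.95 to 1.07 under both. On chromosome 8 at 122788298 it went from 10.98 to 2.22 at a fold of at least 3. Lists of each genotype stand for both libraries. No paired analysis was possible because the lists carry no replicate, and for the same reason no library could be left out.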
